A study of Homo sapiens with 6 samples.

Results

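The genes described here encode the regulators of pre-mRNA splicing: SR proteins, their SR-like partners, the kinases that phosphorylate them, the heterogeneous nuclear ribonucleoproteins (hnRNPs), the proteins that recognise the 3′ splice site, and 3 associated factors. They were selected by symbol from a table of 26789 genes, 45 symbols were found, and no symbol occurred more than once. They comprised 11 SR proteins, 4 SR-like proteins, 6 kinases, 18 hnRNPs including PTBP1 and PTBP2, 3 proteins of 3′ splice site recognition, and SFPQ, NONO and RBM39. RNA came from the human neuroblastoma line SK-N-SH, which holds adrenergic and mesenchymal cells and is labelled Wild Type in both groups. The dopamine group (n = 3) received dopamine in its medium for 6 h and the control group (n = 3) received medium alone. The dose reads 40 M in the labels, probably with a lost prefix, and no use is made of it here. The design text of the series names SH-SY5Y, a subline of SK-N-SH, as the treated line, whereas every sample is labelled SK-N-SH. No label states that the replicates were cultured apart, so each p-value reflects only how far these 6 samples spread, a spread that may be technical. Both groups consist of a single line, and in bulk RNA fewer cells of a type and less RNA per cell cannot be told apart.

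SR proteins carry RNA recognition motifs and a tail rich in arginine and serine. They bind exonic enhancers and recruit the splicing machinery, and their tails are phosphorylated in the cytoplasm by SRPK kinases and in the nucleus by CLK kinases. The hnRNPs coat nascent transcripts, and many of them silence exons that SR proteins promote, so that the balance between both families sets which exons are kept. Several of these genes limit their own output through poison exons, which direct the transcript to nonsense-mediated decay. In neuronal cells the balance between PTBP1 and its neural paralogue PTBP2 is a textbook determinant of neuronal splicing.

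Values were FPKM, fragments scaled to gene length and to the size of the library, so levels can be set beside each other between genes. The depth recovered from the table ran from 19394000 to 24232000 fragments per library, so that 1 FPKM of a gene with 1 kb of exon stood for 19.4 to 24.2 fragments. The log2 values of any 2 libraries correlated at 0.957 to 0.994 over all tested genes. All 10 adrenergic markers and all 7 mesenchymal markers of neuroblastoma were detected. The adrenergic markers summed to 401, 349 and 389 FPKM in the dopamine libraries and 398, 350 and 399 FPKM in the control libraries. Single markers went both ways within this sum, and 0 passed after adjustment. At an unadjusted p under 0.05 (limma), PHOX2A and GATA2 had the lower mean, with log2 fold changes of -0.25 and -0.20 (20%, background 8.05%). STMN2 and CHGB had the higher mean, with 0.48 and 0.35 (20%, background 24.4%). After the GC and length correction described further on, PHOX2A and GATA2 were at -0.06 and -0.07. At an unadjusted p under 0.05 (limma), 0 of the 10 adrenergic markers then had the lower mean (background 8.45%). The higher mean was found for 2 (20%, background 8.37%). The mesenchymal markers summed to 1131, 1182 and 1172 FPKM in the dopamine libraries and 1277, 1138 and 1209 FPKM in the control libraries. Their median log2 fold change was 0.02, and -0.23 after the same correction. After that correction 4 of the 7 had the lower mean at an unadjusted p under 0.05 (57.1%, background 8.45%). Summed immune markers reached at most 0.0604 FPKM and summed endothelial markers at most 0.0616 FPKM in any library. Of the epithelial markers, EPCAM and CDH1 stayed below 0.2 FPKM, but keratins were expressed. KRT18 averaged 95.4 FPKM in dopamine cells and 141 FPKM in control cells. KRT8 averaged 14.3 and 18.6 FPKM and KRT19 1.48 and 1.88 FPKM, in the same order. All 3 tested keratins had the lower mean under dopamine, with a median log2 fold change of -0.37.

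Most splicing regulators were abundant. Their mean level ran from 0.319 FPKM for CLK4 to 108 FPKM for NONO, with a median of 26.8 FPKM, against a median of 5.71 FPKM over all tested genes, and 16 of the 45 lay in the top 10% of the tested genes. The highest levels belonged to NONO, HNRNPA1, U2AF2, HNRNPK and PTBP1, whose values overlapped across libraries, so their order was not resolved. The lowest belonged to SRSF10, PTBP2 and CLK4, which averaged below 1 FPKM and were not tested. CLK1 was the lowest tested gene. The kinases as a group summed to 35.1, 32.8 and 37.5 FPKM in the dopamine libraries and 32.1, 28.1 and 29.4 FPKM in the control libraries, whereas the hnRNPs summed to 853, 863 and 997 FPKM in the dopamine libraries and 888, 807 and 835 FPKM in the control libraries.

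**Figure D1:**
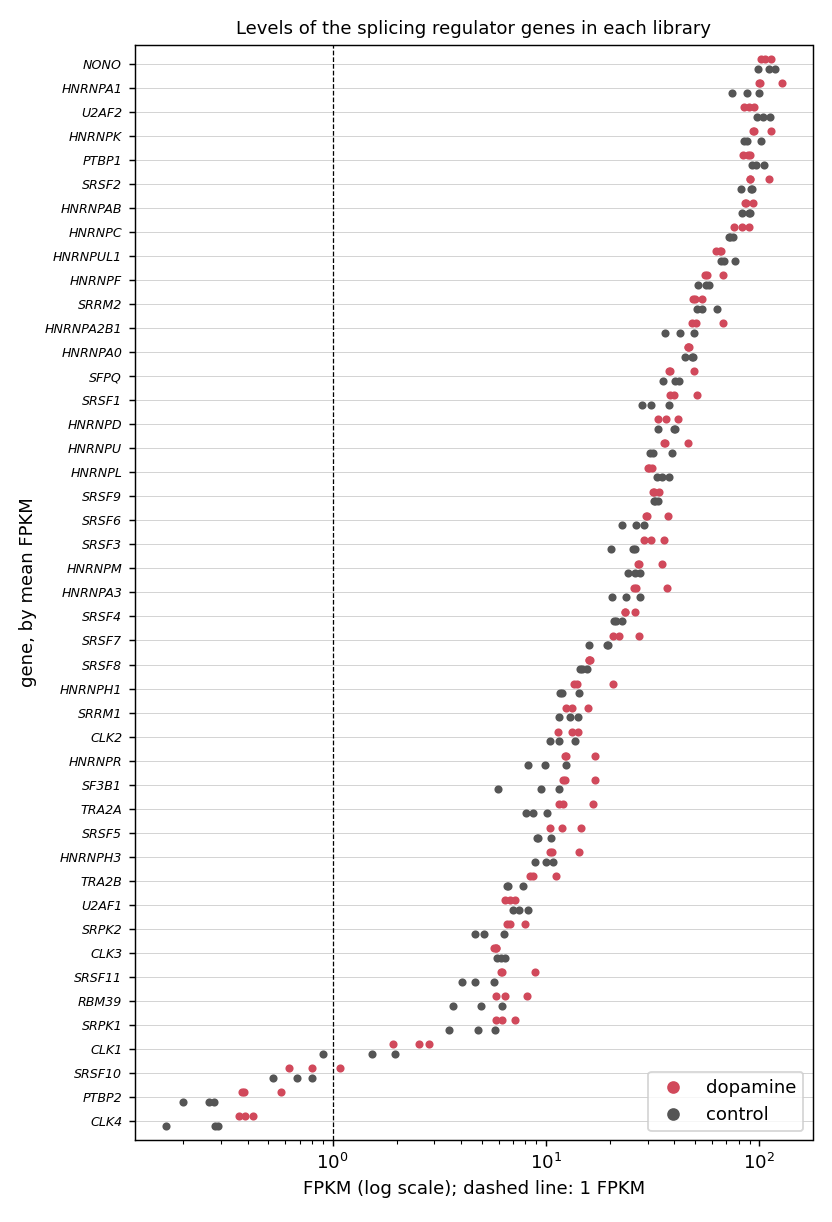
FPKM of each of the 45 splicing regulator genes in each library, on a log axis, with genes ordered by mean level. Dopamine libraries are the upper red points and control libraries the lower grey points of each row, and the dashed line marks the 1 FPKM below which SRSF10, PTBP2 and CLK4 were not tested.

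After 6 h of dopamine most SR proteins, the SR-like proteins TRA2A and TRA2B, the kinases CLK1, SRPK1 and SRPK2, and SF3B1 had higher mean levels than in control cells, by 1.23 to 1.53-fold for those with an unadjusted p under 0.05. HNRNPL and U2AF2 had lower means, at 0.874 and 0.856 of the control on the same scale. None of these differences passed the test after adjustment over all genes. All fold changes are dopamine over control on the log2(FPKM + 0.5) scale, from limma's moderated test (two-sided) with Benjamini-Hochberg adjustment over 11791 genes with a mean of at least 1 FPKM, and the threshold is an adjusted p of 0.05. Of the 42 tested splicing regulators 0 passed, against 12 of all tested genes (0.102%). At an unadjusted p under 0.05, 16 of 42 (38.1%) had the higher mean in dopamine cells, against a background of 24.4% of all tested genes, and 2 (4.76%) the lower, against 8.05%. All 3 dopamine values lay above all 3 control values for 14 of 42 genes (33.3%, background 24.4%) and below them for 4 (9.52%, background 14.1%). The mean difference was above 0 for 31 of 42 genes (73.8%, background 60.0%). The median log2 fold change was 0.18 over the splicing regulators and 0.08 over all tested genes, and single genes ran from -0.23 to 0.62.

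The count of calls depended on single libraries. With sample quality weights 11 of the 42 genes passed the adjusted threshold with the higher mean in dopamine cells (26.2%, background 17.4%) and U2AF2 alone with the lower (2.38%, background 5.51%). Without control replicate 1 the number was 13, all with the higher mean (31.0%, background 16.8%). The genes that passed without control replicate 1 were SRSF1, SRSF3, SRSF11, TRA2A, TRA2B, CLK1, SRPK1, SRPK2, HNRNPA1, HNRNPA2B1, HNRNPR, SF3B1 and RBM39, with adjusted p from 0.0304 to 0.0392. Control replicate 1 was the highest control library in all 13. Median-of-ratios scaling moved the median of all tested genes by about 0.10, to -0.02, and that of the splicing regulators to 0.06, leaving 10 genes with the higher mean at an unadjusted p under 0.05 (23.8%, background 14.5%) and 6 with the lower (14.3%, background 16.4%). Without overlap were then 8 genes higher (19.0%, background 17.6%) and 10 lower (23.8%, background 21.0%) in dopamine cells.

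**Figure D2:**
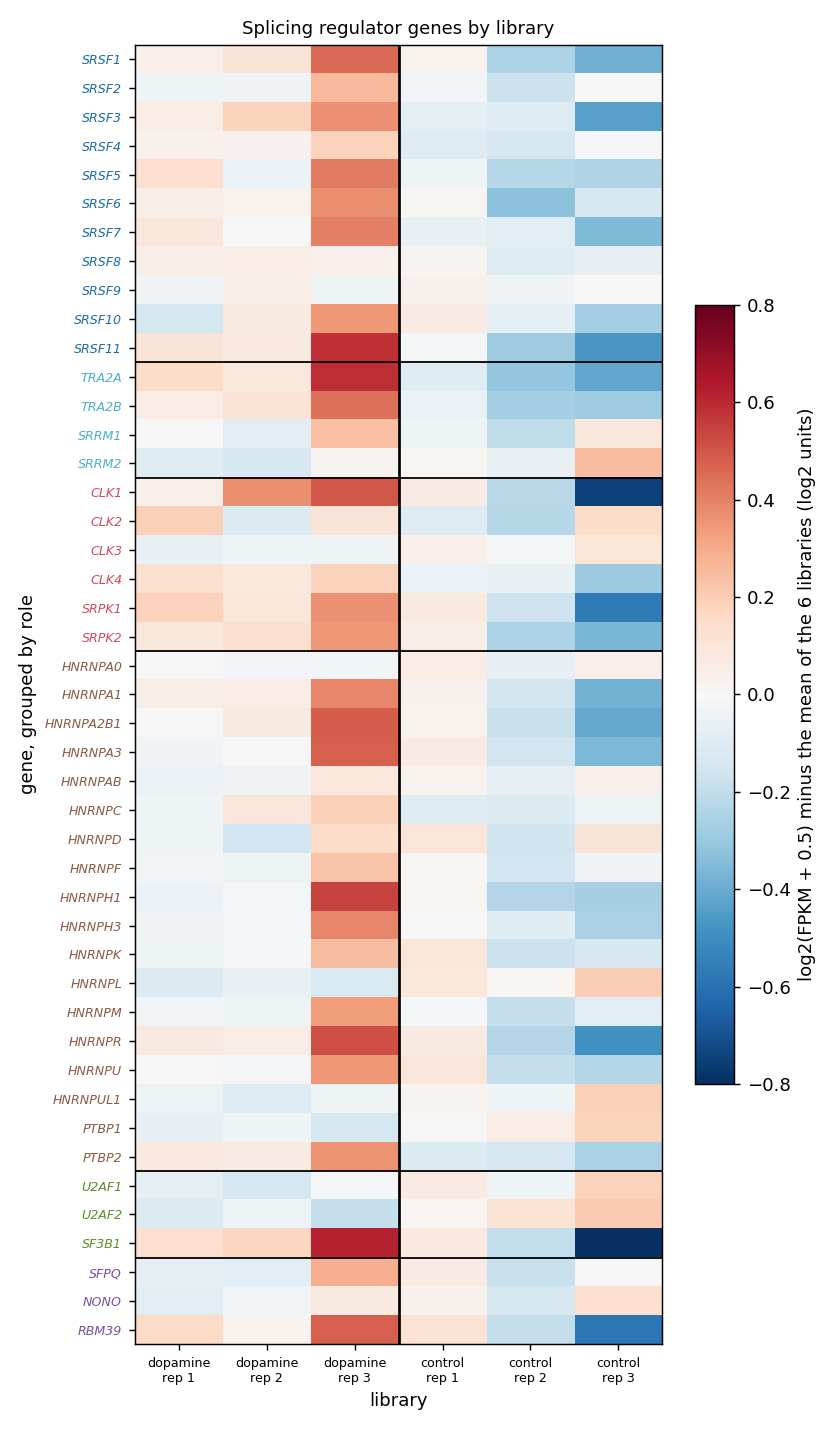
Deviation of log2(FPKM + 0.5) from the mean of the 6 libraries for each of the 45 genes, with role groups separated by horizontal lines and dopamine libraries left of the vertical line. Dopamine replicate 3 was the highest library for 33 genes, and control replicate 3 was the lowest for 22.

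The SR proteins had a median log2 fold change of 0.32 over the 10 tested, all but 1 of them above 0 (background 60.0%). The groups of 7 did not overlap, with dopamine on top (background 24.4%). At an unadjusted p under 0.05 (limma), 6 had the higher mean (background 24.4%). After the GC and length correction described further on, 0 of 9 had the higher mean at that level (background 8.37%) and 1 the lower (background 8.45%). SRSF3, the shortest SR protein and a regulator of its own poison exon, had 28.8, 31.2 and 35.6 FPKM in dopamine replicates 1 to 3 and 26.2, 25.7 and 20.3 FPKM in control replicates 1 to 3. Its groups did not overlap, and the log2 fold change was 0.40 ± 0.12 (SE), with an unadjusted p of 0.00702 and an adjusted p of 0.11 (limma). The gene (ENSG00000112081.12) lies at chr6:36562145-36573377 in hg19. Its promoter, shown because SRSF3 had the smallest p among the SR proteins, runs from 250 bases before to 50 bases after the start site (RefSeq, GRCh38.p14, chr6:36594112-36594411, plus strand). Capitals mark CCAAT boxes (CCAAT on either strand) at -70 and -55 and a TATA box (TATAAA) at -30, counted to the first base of each match from the start site.
SRSF3 promoter: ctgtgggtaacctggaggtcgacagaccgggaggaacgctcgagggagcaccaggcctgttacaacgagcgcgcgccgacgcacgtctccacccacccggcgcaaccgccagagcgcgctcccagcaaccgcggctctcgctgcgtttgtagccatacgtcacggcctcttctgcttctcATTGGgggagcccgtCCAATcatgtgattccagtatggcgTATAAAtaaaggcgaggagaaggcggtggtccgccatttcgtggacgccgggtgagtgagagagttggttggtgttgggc

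SRSF1, the prototype SR protein, had 38.1, 39.8 and 51.0 FPKM in dopamine cells and 37.7, 31.2 and 28.3 FPKM in control cells. Means were 43.0 ± 6.98 and 32.4 ± 4.82 FPKM (SD, n = 3 each), and the log2 fold change was 0.40 ± 0.13 with an unadjusted p of 0.0139 (adjusted p 0.113, limma). The lowest dopamine library exceeded the highest control library only narrowly. SRSF11, an SR-related protein that contacts U2AF2, had 6.24, 6.13 and 8.90 FPKM in dopamine cells and 5.72, 4.65 and 4.06 FPKM in control cells. Its log2 fold change of 0.51 ± 0.16 was the largest of the SR proteins (unadjusted p 0.0119, adjusted p 0.111, limma). In both genes dopamine replicate 3 stood above the other libraries and control replicate 3 below them.

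In 3 further genes the groups did not overlap, at smaller log2 fold changes than in SRSF1 and SRSF11. SRSF7, the SR protein with a zinc knuckle, had 21.9, 20.6 and 27.2 FPKM in dopamine cells and 19.6, 19.3 and 15.9 FPKM in control cells (log2 fold change 0.33, unadjusted p 0.0221). SRSF6, another exonic enhancer binder, had 29.8, 29.3 and 37.4 FPKM in dopamine cells and 28.9, 22.7 and 26.3 FPKM in control cells (log2 fold change 0.30, unadjusted p 0.0313). SRSF4 had 23.5, 23.6 and 26.1 FPKM in dopamine cells and 21.4, 20.9 and 22.8 FPKM in control cells (log2 fold change 0.17, unadjusted p 0.066). In these 3 genes no dopamine value fell within the control range, and dopamine replicate 3 was the highest library in each.

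SRSF5 had 11.9, 10.5 and 14.6 FPKM in dopamine cells and 10.5, 9.15 and 9.06 FPKM in control cells, so that dopamine replicate 2 and control replicate 1 met, at a log2 fold change of 0.34 and an unadjusted p of 0.0232. SRSF2, an SR protein that stays in the nucleus, had 90.2, 90.6 and 110.5 FPKM in dopamine cells and 91.1, 81.9 and 92.5 FPKM in control cells. These groups overlapped (log2 fold change 0.13, unadjusted p 0.217). SRSF9 differed least, at 32.5 ± 1.10 FPKM in dopamine cells and 32.7 ± 0.654 FPKM in control cells, with a log2 fold change of -0.0049. SRSF8, which derives from a copy of SRSF2, averaged 16.0 FPKM in dopamine cells and 14.9 FPKM in control cells without overlap (unadjusted p 0.24), and SRSF10, below the level tested, had 0.625, 0.803 and 1.08 FPKM in dopamine cells and 0.797, 0.679 and 0.527 FPKM in control cells.

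Among the SR-like proteins the paralogous enhancer binders TRA2A and TRA2B both separated the groups, and the large scaffold proteins SRRM1 and SRRM2 did not. TRA2A (ENSG00000164548.6, chr7:23544399-23571660, hg19) had 12.1, 11.6 and 16.6 FPKM in dopamine cells and 10.1, 8.67 and 8.03 FPKM in control cells. Its unadjusted p of 0.00377 was the smallest of all 42 genes (log2 fold change 0.55 ± 0.14, adjusted p 0.11, limma). TRA2B had 8.42, 8.74 and 11.1 FPKM in dopamine cells and 7.77, 6.61 and 6.54 FPKM in control cells (log2 fold change 0.40 ± 0.12, unadjusted p 0.00936, adjusted p 0.11, limma). Every dopamine library was above every control library in both paralogues. SRRM1 had 13.2, 12.4 and 15.7 FPKM in dopamine cells and 12.9, 11.5 and 14.2 FPKM in control cells, with overlap (unadjusted p 0.42). SRRM2 had 49.7, 48.8 and 54.0 FPKM in dopamine cells and 53.9, 51.2 and 63.2 FPKM in control cells, also with overlap (log2 fold change -0.14, unadjusted p 0.173).

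The kinases that phosphorylate SR proteins had a median log2 fold change of 0.38 over the 5 tested, against 0.08 over all tested genes. Of the 5, 3 had the higher mean at an unadjusted p under 0.05 (limma, background 24.4%). After the GC and length correction described further on, 0 of 5 had the higher mean at that level (background 8.37%) and 1 the lower (background 8.45%). CLK1, a nuclear kinase whose own transcript retains introns that are spliced when its activity drops, had 1.92, 2.55 and 2.82 FPKM in dopamine cells and 1.97, 1.52 and 0.906 FPKM in control cells. Means were 2.43 ± 0.461 and 1.46 ± 0.533 FPKM (SD, n = 3 each), the log2 fold change was 0.60 ± 0.21, and the adjusted p was 0.117 (limma). The groups overlapped, because control replicate 1 lay above dopamine replicate 1. CLK1 (ENSG00000013441.11, chr2:201717732-201729422, hg19) had the second-largest log2 fold change of the 42 genes, so its promoter is shown (RefSeq, GRCh38.p14, chr2:200864609-200864908, minus strand). Capitals mark the core of an antioxidant response element (TGACNNNGC, here on the opposite strand) at -53.
CLK1 promoter: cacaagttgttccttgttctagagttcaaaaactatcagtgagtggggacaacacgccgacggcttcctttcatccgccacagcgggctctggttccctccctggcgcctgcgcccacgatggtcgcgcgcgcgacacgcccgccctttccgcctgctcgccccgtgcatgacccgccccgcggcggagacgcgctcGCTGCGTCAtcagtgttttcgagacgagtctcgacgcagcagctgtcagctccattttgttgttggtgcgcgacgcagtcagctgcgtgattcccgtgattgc

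SRPK1, the main cytoplasmic SR protein kinase, had 6.25, 5.85 and 7.14 FPKM in dopamine cells and 5.77, 4.79 and 3.51 FPKM in control cells (log2 fold change 0.43 ± 0.16, unadjusted p 0.0242). SRPK2, its paralogue that is prominent in brain, had 6.59, 6.79 and 7.97 FPKM in dopamine cells and 6.38, 5.12 and 4.66 FPKM in control cells (log2 fold change 0.38 ± 0.13, unadjusted p 0.0166). Neither gene overlapped between the groups, and control replicate 3 was the lowest library in both. CLK2 had 14.2, 11.4 and 13.3 FPKM in dopamine cells and 11.5, 10.4 and 13.7 FPKM in control cells, with overlap (unadjusted p 0.331). CLK3 lay slightly lower in every dopamine library, at 5.79 ± 0.0561 FPKM in dopamine cells and 6.17 ± 0.270 FPKM in control cells (log2 fold change -0.08, unadjusted p 0.383). CLK4, below the level tested, had 0.390, 0.364 and 0.425 FPKM in dopamine cells and 0.289, 0.281 and 0.165 FPKM in control cells, without overlap.

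**Figure D3:**
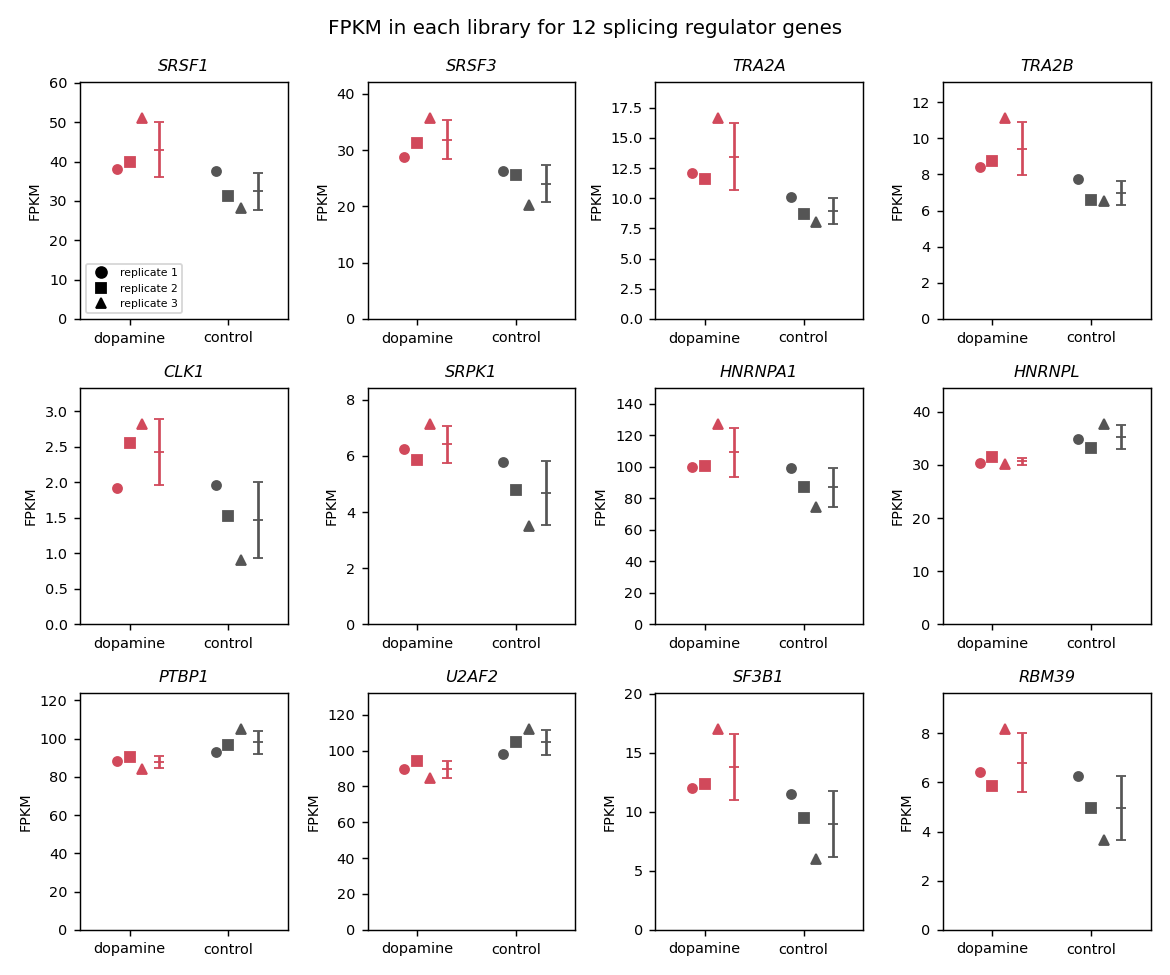
FPKM in each library for 12 splicing regulator genes, with dopamine left and control right in each panel, symbols for replicates 1 to 3, and the mean ± SD (n = 3) drawn beside the points. Dopamine replicate 3 is the highest point and control replicate 3 the lowest for SRSF1, SRSF3, TRA2A, TRA2B, CLK1, SRPK1, HNRNPA1, SF3B1 and RBM39, and this order is turned round for HNRNPL, PTBP1 and U2AF2.

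The hnRNPs had a smaller median log2 fold change than the SR proteins, 0.17 over the 17 tested. HNRNPA1, HNRNPA2B1 and HNRNPR had the higher mean in dopamine cells at an unadjusted p under 0.05 (limma, 3 of 17, background 24.4%). HNRNPL had the lower (1 of 17, background 8.05%). Both shares lay below the background. HNRNPA1, the classical antagonist of SRSF1 in splice site choice, had 99.99, 101 and 127 FPKM in dopamine cells and 99.2, 87.3 and 74.3 FPKM in control cells. The log2 fold change was 0.33 ± 0.13 (unadjusted p 0.0267, adjusted p 0.126, limma), and the groups were separated by under 1 FPKM, between dopamine replicate 1 and control replicate 1. HNRNPA2B1, its close relative, had 48.3, 50.7 and 67.7 FPKM in dopamine cells and 49.3, 42.5 and 36.2 FPKM in control cells (log2 fold change 0.37, unadjusted p 0.0289). HNRNPR had 12.4, 12.2 and 17.0 FPKM in dopamine cells and 12.4, 9.93 and 8.28 FPKM in control cells (log2 fold change 0.43, unadjusted p 0.0266). Both of these overlapped between the groups, with control replicate 1 close to dopamine replicates 1 and 2.

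HNRNPL, which binds CA repeats and represses exons, was the only hnRNP with the lower mean at an unadjusted p under 0.05. It had 30.4, 31.5 and 30.2 FPKM in dopamine cells and 34.8, 33.2 and 37.7 FPKM in control cells, without overlap. Means were 30.7 ± 0.668 and 35.3 ± 2.28 FPKM (SD, n = 3 each), and the log2 fold change was -0.19 ± 0.08 (unadjusted p 0.0295, adjusted p 0.129, limma). HNRNPL (ENSG00000104824.12) lies at chr19:39327028-39342987 in hg19.

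The other hnRNPs did not reach an unadjusted p of 0.05. HNRNPC, a core protein that binds uridine tracts, had 75.9, 83.2 and 89.1 FPKM in dopamine cells and 72.9, 72.0 and 75.6 FPKM in control cells, without overlap (log2 fold change 0.17, unadjusted p 0.0627). HNRNPA3 had 25.8, 26.4 and 36.9 FPKM in dopamine cells and 27.6, 23.7 and 20.4 FPKM in control cells (log2 fold change 0.30, unadjusted p 0.0778). HNRNPH1, which binds G-rich tracts, had 13.6, 14.0 and 20.7 FPKM in dopamine cells and 14.3, 11.9 and 11.6 FPKM in control cells (log2 fold change 0.32, unadjusted p 0.0679). HNRNPA3 and HNRNPH1 overlapped between the groups, and only dopamine replicate 3 lay above control replicate 1 in both.

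HNRNPH3 and HNRNPF also bind G-rich tracts. HNRNPH3 had 10.5, 10.7 and 14.2 FPKM in dopamine cells and 10.8, 9.98 and 8.89 FPKM in control cells (unadjusted p 0.101), and HNRNPF had 56.6, 55.8 and 67.3 FPKM in dopamine cells and 58.0, 51.6 and 56.3 FPKM in control cells (unadjusted p 0.258). HNRNPK, a binder of C-rich sequence, had 93.2, 94.8 and 114 FPKM in dopamine cells and 102, 84.5 and 87.2 FPKM in control cells (unadjusted p 0.216). HNRNPU, a nuclear matrix protein, had 36.3, 35.9 and 46.3 FPKM in dopamine cells and 38.9, 31.8 and 30.8 FPKM in control cells (unadjusted p 0.108). Control replicate 1 exceeded dopamine replicates 1 and 2 in all 4 genes. HNRNPM averaged 29.8 ± 4.53 FPKM in dopamine cells and 26.0 ± 1.67 FPKM in control cells (unadjusted p 0.121). HNRNPA0, HNRNPAB, HNRNPD and HNRNPUL1 had log2 fold changes between -0.12 and 0.01, with unadjusted p from 0.168 for HNRNPUL1 to 0.94 for HNRNPAB.

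PTBP1, the polypyrimidine tract binder that represses neuronal exons, had 88.4, 90.5 and 84.1 FPKM in dopamine cells and 92.8, 96.4 and 105 FPKM in control cells. The groups did not overlap, and the log2 fold change was -0.16 ± 0.08 (unadjusted p 0.0642, adjusted p 0.172, limma). PTBP2 averaged below the level tested, with 0.385, 0.376 and 0.575 FPKM in dopamine cells and 0.277, 0.263 and 0.198 FPKM in control cells, also without overlap. PTBP1 therefore exceeded PTBP2 by a factor of 230, 241 and 146 in dopamine replicates 1 to 3 and of 335, 366 and 529 in control replicates 1 to 3. The ratio was lower in every dopamine library. PTBP1 and PTBP2 transcripts lie at opposite ends of the GC range of the splicing regulators, with 61.7% and 34.7% GC, and the ratio was lowest in dopamine replicate 3 and highest in control replicate 3, the libraries at the ends of the GC slope described further on. The part of that slope in the ratio was not tested.

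The proteins that recognise the 3′ splice site did not share a direction. SF3B1, the U2 snRNP subunit that clamps the branch point, had 12, 12.3 and 17.0 FPKM in dopamine cells and 11.5, 9.43 and 5.98 FPKM in control cells. Its log2 fold change of 0.62 ± 0.21 was the largest of the 42 genes (unadjusted p 0.0173, adjusted p 0.116, limma). Without dopamine replicate 3 and control replicate 3 it was 0.21 (unadjusted p 0.0806). U2AF2, which binds the polypyrimidine tract, had 89.6, 94.1 and 84.6 FPKM in dopamine cells and 97.9, 104 and 112 FPKM in control cells. Its log2 fold change of -0.23 ± 0.08 was the lowest of the 42 genes (unadjusted p 0.0188, adjusted p 0.117, limma). Neither gene overlapped between the groups. U2AF1, which reads the AG at the intron end, had 6.78, 6.46 and 7.12 FPKM in dopamine cells and 7.51, 6.98 and 8.21 FPKM in control cells, with overlap (log2 fold change -0.14, unadjusted p 0.171).

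SF3B1 (ENSG00000115524.11, chr2:198254508-198299815, hg19) and U2AF2 (ENSG00000063244.8, chr19:56165512-56186081, hg19) differ in base composition, which the values of all genes followed, as described further on. The first 150 bases of both coding sequences are shown (GENCODE 29, GRCh38, longest coding transcript) with every G and C in capitals. They hold 45.3% GC in SF3B1 and 66% in U2AF2, and over the whole coding sequence the third codon positions hold 33.4% and 79.8%.
SF3B1 coding bases 1 to 150: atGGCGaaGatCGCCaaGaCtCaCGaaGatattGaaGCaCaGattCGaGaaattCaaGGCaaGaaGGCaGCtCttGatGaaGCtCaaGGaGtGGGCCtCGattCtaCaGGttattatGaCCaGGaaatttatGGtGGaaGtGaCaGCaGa
U2AF2 coding bases 1 to 150: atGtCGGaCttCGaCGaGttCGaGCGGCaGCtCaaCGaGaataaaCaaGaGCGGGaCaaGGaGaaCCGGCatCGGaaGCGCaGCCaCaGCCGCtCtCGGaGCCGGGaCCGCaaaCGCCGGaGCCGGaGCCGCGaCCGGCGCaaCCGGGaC

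SFPQ, NONO and RBM39, nuclear proteins that join transcription to splicing, had a median log2 fold change of 0.08. RBM39, a coactivator related to U2AF2, had 6.41, 5.84 and 8.16 FPKM in dopamine cells and 6.24, 4.96 and 3.66 FPKM in control cells (log2 fold change 0.44 ± 0.18, unadjusted p 0.039, adjusted p 0.141, limma). The groups overlapped, since control replicate 1 lay above dopamine replicate 2. The paraspeckle partners SFPQ and NONO both overlapped between the groups. SFPQ had 38.0, 37.7 and 49.3 FPKM in dopamine cells and 42.1, 35.4 and 40.1 FPKM in control cells (unadjusted p 0.511). NONO had 101, 106 and 114 FPKM in dopamine cells and 111, 98.8 and 119 FPKM in control cells (unadjusted p 0.769).

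The differences followed the GC content of the transcripts. Over the 41 tested splicing regulators with an annotated transcript, the log2 fold change and the GC content of the longest transcript correlated at a Pearson r of -0.67 and a Spearman rho of -0.64, and over 11579 tested genes at -0.75 and -0.78. These are correlations across genes measured in the same 6 libraries, and genes are not independent replicates. Transcripts of splicing regulators were AT-rich, with a median of 41.6% GC against 49.4% for all tested genes, and 21 of the 41 lay in the lowest GC quintile of the tested genes. In that quintile the splicing regulators had a median log2 fold change of 0.37, close to the 0.40 of all 2317 genes there. In the next quintile 8 splicing regulators had a median of 0.13 against 0.27. Further up, 6 had 0.09 against 0.09 and 4 had -0.06 against -0.08. PTBP1 and U2AF2, both in the top quintile, had a median of -0.19 against -0.16. The relation also held for coding sequence alone, with a Pearson r of -0.75 between the log2 fold change and the GC content of the third codon positions, which ran from 28.6% in HNRNPA3 to 82.5% in PTBP1.

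**Figure D4:**
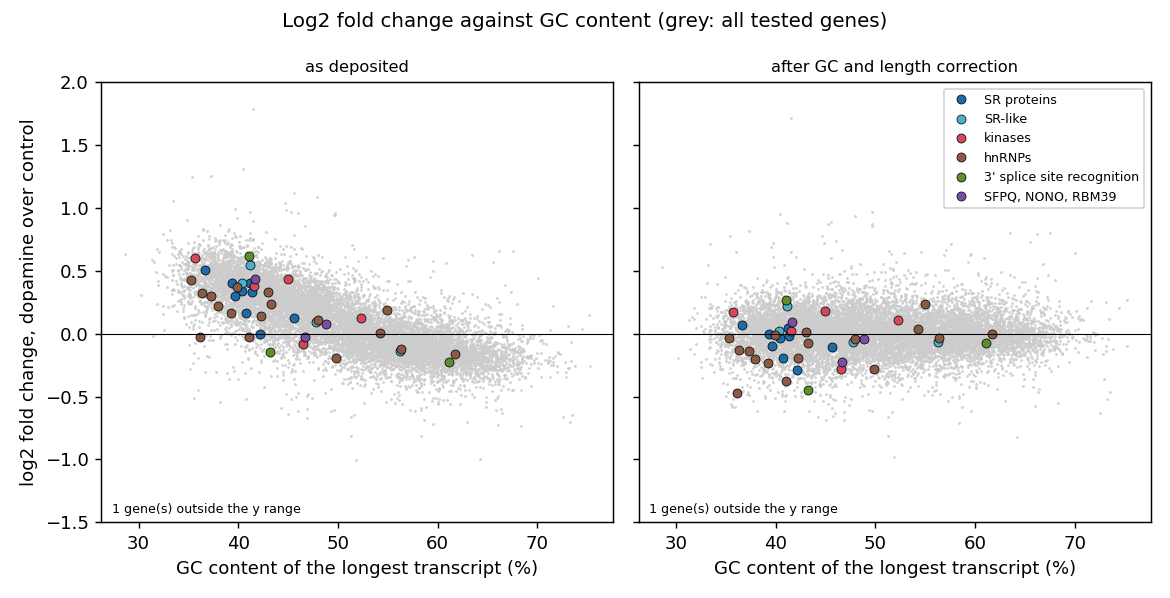
Log2 fold change, dopamine over control, against the GC content of the longest transcript in percent, as deposited (left) and after the GC and length correction (right), with all tested genes in grey and splicing regulators coloured by role. Left, the coloured points follow the slope of the grey ones (Pearson r of -0.67 and -0.75); right, both are flat (0.14 and -0.03), and 1 gene lies outside the vertical range in each panel.

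Libraries differed in this slope within each group as well as between the groups. It was -0.03, -0.06 and -0.26 log2 units per 10 percentage points of GC in dopamine replicates 1, 2 and 3, and 0.02, 0.11 and 0.22 in control replicates 1, 2 and 3. The median deviation of the splicing regulators from their mean was -0.0011, -0.0096 and 0.31 log2 units in the dopamine libraries and 0.02, -0.16 and -0.10 in the control libraries. Dopamine replicate 3 was thus the only dopamine library in which the typical splicing regulator stood above the average. Without dopamine replicate 3 and control replicate 3, the libraries at both ends of the GC slope, 3 of 42 genes had the higher mean at an unadjusted p under 0.05 (7.14%, background 8.65%), namely SRSF3, TRA2A and TRA2B, and 0 the lower (background 4.42%). With 2 libraries a group, 14 genes lay higher in dopamine cells without overlap (33.3%, background 31.5%) and 7 lower (16.7%, background 18.0%). The medians were then 0.08 over the splicing regulators and 0.06 over all tested genes. A list of RNAs taken as retained in the nucleus was also looked up. Where each of these RNAs lies in these cells was not measured. The summed level of the list was 8.57, 7.60 and 11.4 FPKM in the dopamine libraries and 7.42, 6.03 and 5.19 FPKM in the control libraries. OIP5-AS1 made up the largest part, with 4.85, 4.70 and 5.93 FPKM in the dopamine libraries and 4.38, 3.69 and 2.86 FPKM in the control libraries. MALAT1 was at 1.49, 1.36 and 2.56 FPKM in the dopamine libraries and 1.16, 1.07 and 0.855 FPKM in the control libraries. All 3 tested RNAs of that list, MALAT1, NEAT1 and OIP5-AS1, had the higher mean in dopamine cells, with a median log2 fold change of 0.46. This median was the value of OIP5-AS1, and NEAT1 overlapped between the groups. After the GC and length correction described below the median was 0.15, and 0 of the 3 had an unadjusted p under 0.05 (limma). The part of RNA quality in these differences was not tested.

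After a correction of each library for GC content and transcript length, most SR proteins, TRA2B and SRPK2 had log2 fold changes near or below 0. Because the slopes of the groups did not overlap, part of a true difference may be lost with it. The median log2 fold change was then -0.04 over the 41 splicing regulators and -0.00058 over all genes. Again 0 of the 41 passed the adjusted threshold, against 26 of 11579 genes (0.225%). At an unadjusted p under 0.05, 1 gene had the higher mean (background 8.37%) and 9 the lower (22.0%, background 8.45%). The groups were free of overlap for 2 genes higher (4.88%, background 12.0%) and 10 lower (24.4%, background 12.0%). TRA2A was the 1 with the higher mean, with a log2 fold change of 0.22 ± 0.08 and an unadjusted p of 0.0298 (adjusted p 0.250, limma). SRSF1 was at 0.04, SRSF3 at 0.00 and TRA2B at 0.02, each with an SE of at most 0.07. CLK1 was at 0.17 ± 0.11 and SF3B1 at 0.27 ± 0.13, with unadjusted p of 0.169 and 0.0687.

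HNRNPL had the smallest p after the correction, with a log2 fold change of -0.28 ± 0.06 and an unadjusted p of 0.00119 (adjusted p 0.11, limma). The other 8 with the lower mean were U2AF1 at -0.45 (unadjusted p 0.00435), SRSF9 at -0.29 (0.00681), HNRNPK at -0.19 (0.0109), HNRNPD at -0.47 (0.0144), NONO at -0.22 (0.0156), HNRNPA0 at -0.37 (0.0164), CLK3 at -0.28 (0.0183) and HNRNPU at -0.20 (0.0299). None of these 8 had an unadjusted p under 0.05 as deposited. U2AF2 and PTBP1 were at -0.07 and -0.00, with unadjusted p of 0.214 and 0.952. By role the corrected medians were -0.04 for SR proteins, -0.02 for SR-like proteins, 0.11 for kinases, -0.07 for hnRNPs, -0.07 for 3′ splice site recognition and -0.04 for SFPQ, NONO and RBM39. For 16 genes the sign of the difference turned, and their values stand in the closing section.

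**Figure D5:**
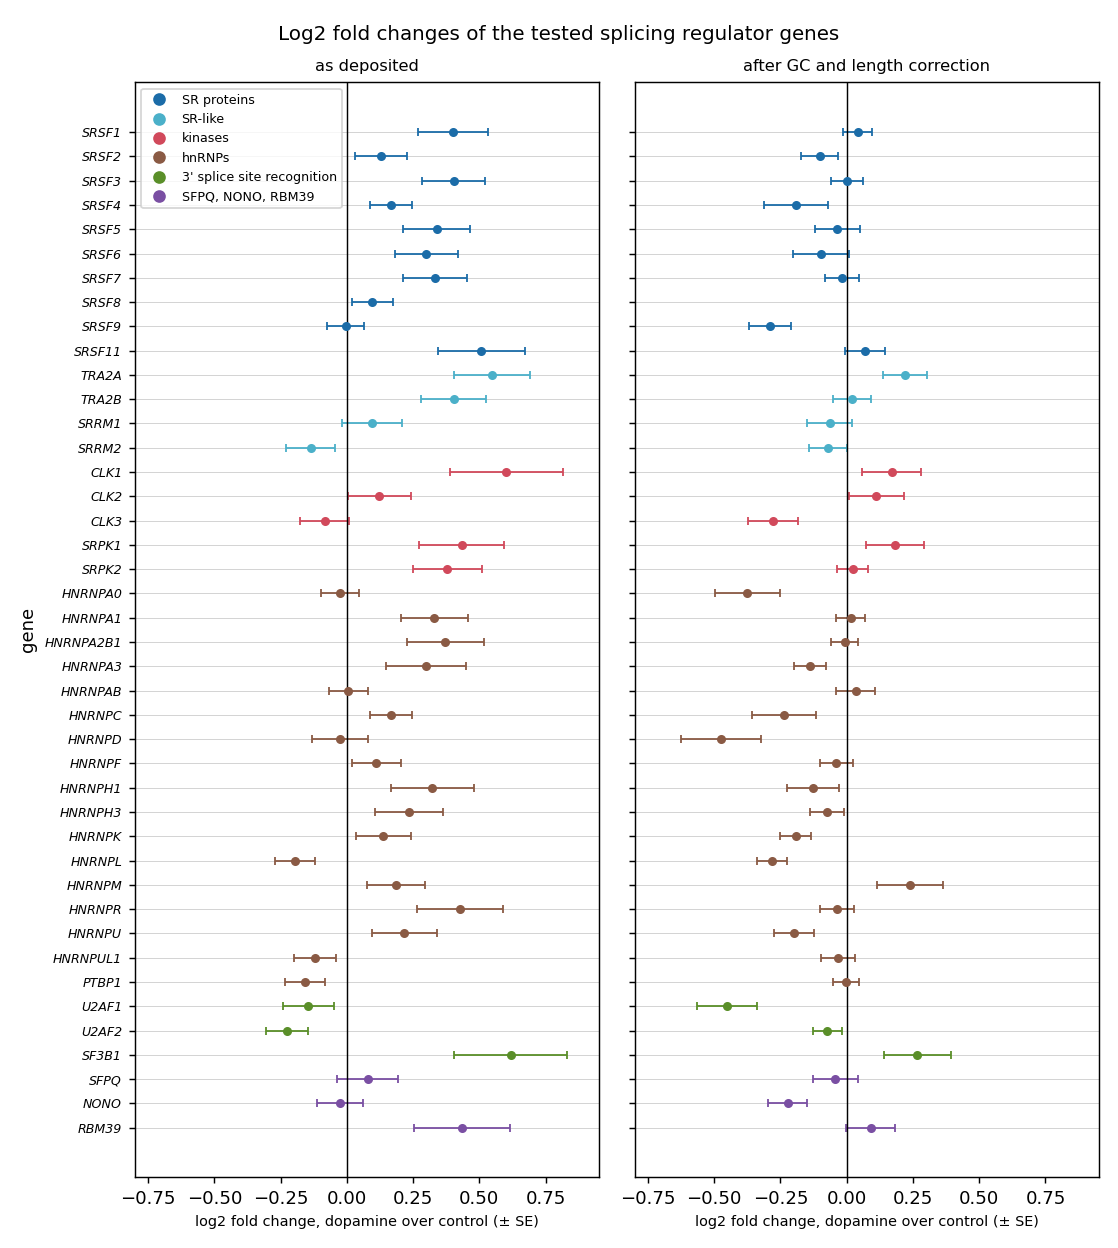
Log2 fold change, dopamine over control, with its SE for each of the 42 tested genes, as deposited (left) and after the GC and length correction (right; SRSF8 has no transcript annotation there), coloured by role. Left, SF3B1, CLK1 and TRA2A lie farthest to the right at 0.62, 0.60 and 0.55; right, most points lie near or left of 0, with TRA2A at 0.22 and HNRNPL at -0.28.

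The rest of the splicing machinery was looked up in a list of 148 symbols, 142 of them in the table and 128 tested. None passed the adjusted threshold, 37 had the higher mean at an unadjusted p under 0.05 (28.9%, background 24.4%) and 7 the lower (5.47%, background 8.05%), and the median log2 fold change was 0.17. Genes of the catalytic steps and the PRPF19 complex had the highest median, 0.46 over 17 genes, with 11 at an unadjusted p under 0.05 (64.7%), all with the higher mean. SF3 complex genes, the partners of SF3B1, had a median of -0.08 over 10 genes, of which 1 (10%) had the higher and 3 (30%) the lower mean at that level. After the GC and length correction the medians were 0.09 and -0.13, and over 126 genes of the whole list -0.01. At an unadjusted p under 0.05, 10 of these 126 then had the higher mean (7.94%, background 8.37%) and 19 the lower (15.1%, background 8.45%).

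BCLAF1, an SR-related factor of splicing and transcription, stood highest in that list, with 5.99, 7.66 and 9.95 FPKM in dopamine cells and 5.21, 4.70 and 2.79 FPKM in control cells (log2 fold change 0.84, unadjusted p 0.00451, adjusted p 0.11, limma). It had 0.39 after the correction (unadjusted p 0.00701). CWC22 and CDC5L, which act in the active spliceosome, had log2 fold changes of 0.73 and 0.58. After the correction they were at 0.35 and 0.18 (unadjusted p 0.108 and 0.0444, limma). SF3A2, which sits in the U2 snRNP beside SF3B1, stood lowest, with 31.8, 32.2 and 27.6 FPKM in dopamine cells and 37.3, 38.6 and 40.9 FPKM in control cells (log2 fold change -0.35, unadjusted p 0.00241, adjusted p 0.11, limma; -0.16 after the correction). SF3B4, RALY and KHSRP were at -0.22, -0.20 and -0.19, and at -0.17, -0.18 and -0.06 after the correction. These genes were picked by log2 fold change among those with an unadjusted p under 0.05 and no overlap between the groups.

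Some values may include fragments of other genes, since the sources used here state neither the strand setting of the counting nor how reads that match several places were handled. For 15 of the 45 genes the table lists 66 named pseudogene copies, 35 of them of HNRNPA1. The most abundant copy was HNRNPCP2, at 13.6 FPKM or 17.4% of the level of HNRNPC. The strongest copies of HNRNPU, HNRNPA3, HNRNPL and HNRNPA1 stood at 12.4%, 12.3%, 11.8% and 6.77% of their parent gene. Of the 45 genes, 17 overlap another listed gene, and for 10 of them that gene exceeded 1 FPKM. The strongest were TCEB2 at 115 FPKM beside SRRM2, TGFB1 at 99.1 FPKM beside HNRNPUL1, CBX3 at 17.1 FPKM beside HNRNPA2B1 and EDC3 at 15.6 FPKM beside CLK3. How many fragments were shared in this way was not estimated, so the values of these genes are uncertain to an unknown extent.

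Promoters of 40 of the 45 genes were found in RefSeq (GRCh38.p14, 250 bases before to 50 after the start), and 6 motifs were searched on both strands. Their median GC content of 64.5% was above the 58.3% of all 27305 promoters, although their transcripts were AT-rich. The antioxidant response element core TGACNNNGC was in 7 of 40 (17.5%), against 13.6% of all promoters and 15.2% of the 7941 promoters of tested genes. The E box CACGTG was in 8 (20%), against 7.43% and 10.3%. CCAAT was in 16 (40%), against 35.7% and 36.9%, the ETS core CCGGAA in 8 (20%), against 17.6% and 31.5%, and TATAAA in 5 (12.5%), against 12% and 4.95%. The cAMP response element TGACGTCA was in 0 of 40, against 1.98% and 3.54%. None of these 6 motifs contains another. U2AF2, the gene with the lowest log2 fold change, is shown for contrast with SRSF3 and CLK1 (chr19:55654785-55655084, plus strand, 72.3% GC), with the ETS core at -30 in capitals.
U2AF2 promoter: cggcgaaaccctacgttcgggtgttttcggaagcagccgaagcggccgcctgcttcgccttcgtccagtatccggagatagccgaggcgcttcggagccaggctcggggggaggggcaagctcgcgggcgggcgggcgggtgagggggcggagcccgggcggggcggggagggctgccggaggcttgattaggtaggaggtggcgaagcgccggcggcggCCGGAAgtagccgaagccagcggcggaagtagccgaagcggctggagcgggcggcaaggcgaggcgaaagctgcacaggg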

How the data were processed

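RNA of 6 SK-N-SH samples, 3 with dopamine and 3 controls, grouped and numbered by their titles, was sequenced from stranded, ribosomal RNA-depleted total RNA libraries. The authors deposited FPKM for 26789 genes with hg19 coordinates. The tools named, without a role, are STAR 2.7.1a, HTSeq 0.11.2, DESeq2 1.40.2 and FastQC 0.11.9, per the submitters' processing notes. The sources used here do not give how FPKM was made or the strand setting. Library totals were recovered from the steps in low FPKM of 2797 pseudogenes spanning 150 to 1500 bases, with 92.5 to 93.9% of the values whole within 0.03 fragments.

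Values were analysed as log2(FPKM + 0.5), which understates the fold changes of low genes, for genes with a mean of at least 1 FPKM. Dopamine was compared with control in limma 3.58.1 (R 4.3.3; intensity trend, two-sided, Benjamini-Hochberg over 11791 genes, threshold 0.05), a script tested on simulated data. FPKM is not a count, so no count model was used. For the GC and length correction, the deviation of a library from each gene's mean was regressed by loess (span 0.5) on percent GC and log2 length, taken from the longest GENCODE 29 transcript and matched by gene identifier for 11579 genes (98.2%). Alternatives were pseudocounts of 0.1 and 1, other filters, 2 other scalings, no trend, sample weights, a replicate block and left-out libraries. Per-library values were given for the 3 genes of each role with the smallest p, for CLK1, SRSF1, HNRNPA1, PTBP1 and PTBP2, and for genes whose sign turned after the correction; those of SRSF10, CLK2, CLK4 and HNRNPL were added after their values were seen. Of the other splicing genes, the 4 highest and 4 lowest with an unadjusted p under 0.05 and no overlap were named, except 1 that is not reported here. The genes and lists were chosen with earlier results of these data known, so counts over them are descriptions. Motifs were searched with Python 3.11.15.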

Additional observations from a re-analysis of the deposited data

How the results depend on the processing

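The number of all genes past the adjusted threshold, 12, was 6 without a filter, 27 with quantile normalization, 5 without the trend, 2706 with sample weights, 26 after the GC and length correction and 7 without dopamine replicate 3 and control replicate 3, and ran from 3 to 2177 with 1 library left out. Splicing regulators with the higher mean at an unadjusted p under 0.05 numbered 16 (38.1%, background 24.4%). They were 10 with median-of-ratios scaling (23.8%, background 14.5%) and 1 after the correction (2.44%, background 8.37%). Without both replicates 3 they were 3 (7.14%, background 8.65%), and with 1 library left out 5 to 19. Those with the lower mean numbered 2 (4.76%, background 8.05%). They were 6 with median-of-ratios scaling (14.3%, background 16.4%), 1 without the trend and 9 after the correction (22.0%, background 8.45%). Without both replicates 3 they were 0 (background 4.42%), and with 1 library left out 0 to 2. Without overlap and higher were 8 with median-of-ratios scaling (19.0%, background 17.6%), 2 after the correction (4.88%, background 12.0%) and 14 to 25 with 1 library left out. Without overlap and lower were 10 (23.8%, background 21.0%), 10 (24.4%, background 12.0%) and 4 to 7. Higher and lower without overlap were 14 (33.3%, background 31.5%) and 7 (16.7%, background 18.0%) without both replicates 3. Shares over all tested genes are not given for the missing trend or for 1 library left out. Those counts therefore have no background and are not a result about the splicing regulators. Leaving out both replicates 3 was chosen after seeing the data.

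Deviations of same-numbered libraries from their group means correlated at -0.20, 0.28 and -0.37, and those of differently numbered libraries at -0.38 to 0.42. With 3 libraries in each group these correlations cannot show whether same-numbered libraries were handled as pairs. The replicate block gave 3 genes past the threshold. At an unadjusted p under 0.05 (limma) it gave 11 splicing regulators with the higher mean and 1 with the lower. The replicate block with the GC and length correction gave 1 higher and 12 lower, and 2 higher and 10 lower without overlap. Shares over all tested genes are not given for the block, with or without the correction. Its counts of splicing regulators are therefore not a result about these genes.

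The median log2 fold change of the splicing regulators, 0.18, was -0.039 after the correction, with or without the block, and 0.10 to 0.23 with 1 library left out. Signs turned after the correction, with or without the block, for SRSF2 (-0.10), SRSF4 (-0.19), SRSF5 (-0.035), SRSF6 (-0.10), SRSF7 (-0.016), SRRM1 (-0.065), HNRNPA2B1 (-0.0077), HNRNPA3 (-0.14), HNRNPC (-0.24), HNRNPF (-0.039), HNRNPH1 (-0.13), HNRNPH3 (-0.074), HNRNPK (-0.19), HNRNPR (-0.037), HNRNPU (-0.20) and SFPQ (-0.043). Median-of-ratios scaling turned SRSF8 (-0.015), SRRM1 (-0.015), HNRNPAB (-0.11), HNRNPF (-0.0027) and SFPQ (-0.034). Sample weights turned SRSF9 (0.028), HNRNPA0 (0.023), HNRNPD (0.0074) and NONO (0.029), quantile normalization turned HNRNPA0 (0.014) and NONO (0.0033), and leaving out both replicates 3 turned SRSF9 (0.0087), HNRNPAB (-0.013) and SFPQ (-0.028). With 1 library left out SRSF9 ran from -0.032 to 0.0097, HNRNPAB from -0.036 to 0.031, HNRNPD from -0.11 to 0.043, NONO from -0.098 to 0.033 and SFPQ from -0.046 to 0.14. The pseudocounts, the filters, the missing trend and the block turned no sign. The cause of these changes was not tested.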
